A study of Mus musculus with 6 samples.

Results

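The Gnas locus on mouse chromosome 2 was examined in a list of regions enriched for methylated DNA in chondrocytes. The locus comprised Gnas and its antisense transcript Nespas, which the RefSeq gene table lists as Gnasas1, and both genes were found in the table. A peak belonged to the locus when its midpoint lay in either gene or within 50 kb of them, and 20 of the 84111 peaks of the list met this rule. The assay was MBD-seq, in which sheared DNA is pulled down with MBD2, a protein that binds methylated CpG, and then sequenced. It came from 6 primary cultures of chondrocytes, the cells of cartilage, prepared from the knee joint cartilage of mice at postnatal days 3 to 5. The 3 control cultures were from mice whose genotype is given as Dnmt1 flox, and the 3 conditional knockout (cKO) cultures from mice of the genotype Prx1-Cre;Dnmt1 flox/flox. All 6 cultures thus carried a floxed allele of Dnmt1, the enzyme that copies CpG methylation to newly made DNA strands. Prx1-Cre acts in limb mesenchyme, so cells of other origin in a culture would keep Dnmt1.

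The values are those of 1 peak list, called on a merge of 3 datasets. The deposited file is labelled as regions of Dnmt1-mediated DNA methylation, and the label does not say what was compared. The file names neither the group of these datasets nor the set of reads that served as the caller's background, and it holds no value for a single culture. No spread between cultures, no depth per culture and no test of control against cKO can therefore be given for any value below. A region without a peak did not reach the limit of the list (lowest −log10 q, 20), which does not show that it lacks methylation.

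Gnas encodes the stimulatory G protein alpha subunit (Gs alpha), which couples receptors such as that for parathyroid hormone-related peptide to adenylyl cyclase. In growth plate cartilage this pathway is known to delay the hypertrophy of chondrocytes. The gene uses alternative first exons that splice to shared downstream exons. From upstream to downstream these are Nesp, which encodes a neuroendocrine secretory protein, Gnasxl, which encodes an extra-large form of the alpha subunit, exon 1A, whose transcript is not translated into Gs alpha, and exon 1 of Gs alpha itself. Nespas starts near the Gnasxl exon and runs in the opposite direction through Nesp. The locus is imprinted: the Nesp promoter is known to be methylated on the paternal allele, the Nespas-Gnasxl region and exon 1A on the maternal allele, and the promoter of exon 1 on neither.

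In GRCm38, Gnas spans chr2:174284320-174346744 (62.4 kb, plus strand) and Nespas chr2:174281237-174295436 (14.2 kb), with 11.1 kb shared. The RefSeq promoter table (GRCm38.p6) gives 4 start sites of Gnas. In their known order these are Nesp at 174284320, a pair for exon 1A at 174327749 and 174327768, and exon 1 at 174330006. It gives none for Gnasxl or Nespas, so the right end of the Nespas gene, at 174295436, was taken as the start of Nespas. The 250 bases before 3 of these starts are shown, plus strand, because the results turn on which of them lay under a peak. Capitals mark each CpG, the dinucleotide whose methylated form MBD2 binds. The first lies at chr2:174284070-174284319 and holds 14 CpG, the second at chr2:174327499-174327748 with 21, and the third at chr2:174329756-174330005 with 29.
Nesp: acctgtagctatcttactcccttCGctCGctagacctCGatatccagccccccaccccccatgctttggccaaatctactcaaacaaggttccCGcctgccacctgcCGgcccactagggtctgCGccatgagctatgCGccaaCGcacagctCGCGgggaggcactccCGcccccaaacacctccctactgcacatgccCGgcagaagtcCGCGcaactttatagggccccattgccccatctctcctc
Exon 1A: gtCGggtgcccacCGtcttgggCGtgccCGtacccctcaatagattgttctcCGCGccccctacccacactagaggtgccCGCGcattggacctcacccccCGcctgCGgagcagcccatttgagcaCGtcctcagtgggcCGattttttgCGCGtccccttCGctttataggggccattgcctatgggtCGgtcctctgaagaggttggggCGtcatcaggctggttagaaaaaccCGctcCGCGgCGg
Exon 1: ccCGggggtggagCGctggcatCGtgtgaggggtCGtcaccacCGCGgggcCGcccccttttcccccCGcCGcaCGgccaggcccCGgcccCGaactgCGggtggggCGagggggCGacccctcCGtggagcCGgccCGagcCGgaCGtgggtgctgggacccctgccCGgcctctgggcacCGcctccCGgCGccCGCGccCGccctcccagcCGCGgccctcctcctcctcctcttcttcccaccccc

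Peaks covered the starts of Nesp, Nespas and exon 1A, and none covered the start of exon 1. The promoter windows of the table run from 250 bases before to 50 after a start. The Nesp window held 16 CpG and all 300 of its bases lay inside a peak. The exon 1A windows held 27 and 28 CpG and were likewise covered over 300 bases, both by 1 peak. The exon 1 window was the richest, with 40 CpG and a GC content of 81.7%, and the closest peak ended 327 bp before it. Only 4.27% of the 24394 promoter windows on covered sequence held as many CpG. Among the 8325 windows with at least 16 CpG, the lowest count of the 4 at Gnas, 1.49% overlapped a peak, and 1.02% overlapped one with a raised background of the kind described below, as those of Nesp and exon 1A did. The exon 1 window was thus like most CpG-rich promoters in having no peak. The hexamer TGCCGC, which the imprint-protecting protein ZFP57 is known to bind when methylated, was searched on both strands. It matched 11.8% of all promoter windows and had 0 matches in each of the 4 at Gnas. Its presence elsewhere in the locus was not analysed here.

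**Figure D1:**
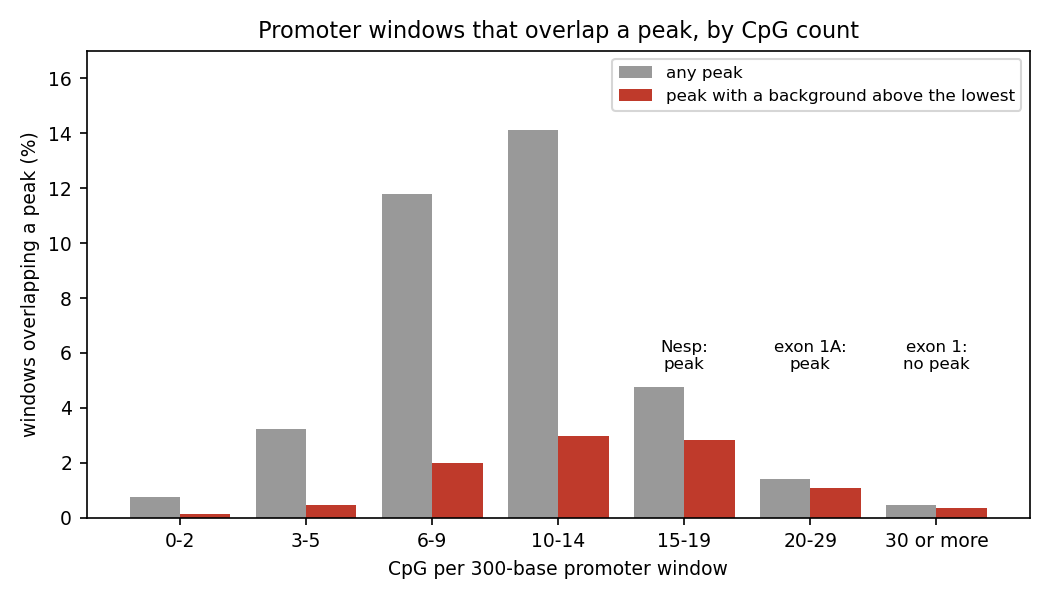
Share of 300-base promoter windows (y axis, %) that overlap a peak, by the number of CpG in the window (x axis); grey bars are any peak and red bars peaks with a background above the lowest of the list. The class of 30 or more CpG, which holds Gnas exon 1, has 0.460% of windows under a peak, and the classes of Nesp and exon 1A have 4.76% and 1.43%.

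Each peak has a deposited fold enrichment and p-value, from which its pileup and background were solved. The pileup is the number of reads of the merged set over the summit. The background is the number that the caller set against it, in reads scaled to the size of the merged set, and the fold is (pileup + 1)/(background + 1). The lowest background among the 84086 peaks that could be solved was 6.37 reads, a floor shared by most peaks. A background over 1% above it was found for 14 of the 20 locus peaks, or 70%, against 25.0% of all peaks. Both shares count peaks as listed, without merging close neighbours. All 14 had their midpoint inside Gnas, and 4 of them also inside Nespas. They formed 3 groups, at Nesp, from the start of Nespas onwards and around exon 1A. The 6 peaks at the floor were the 2 at the far end of Gnas and the 4 in the flanks.

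**Figure D2:**
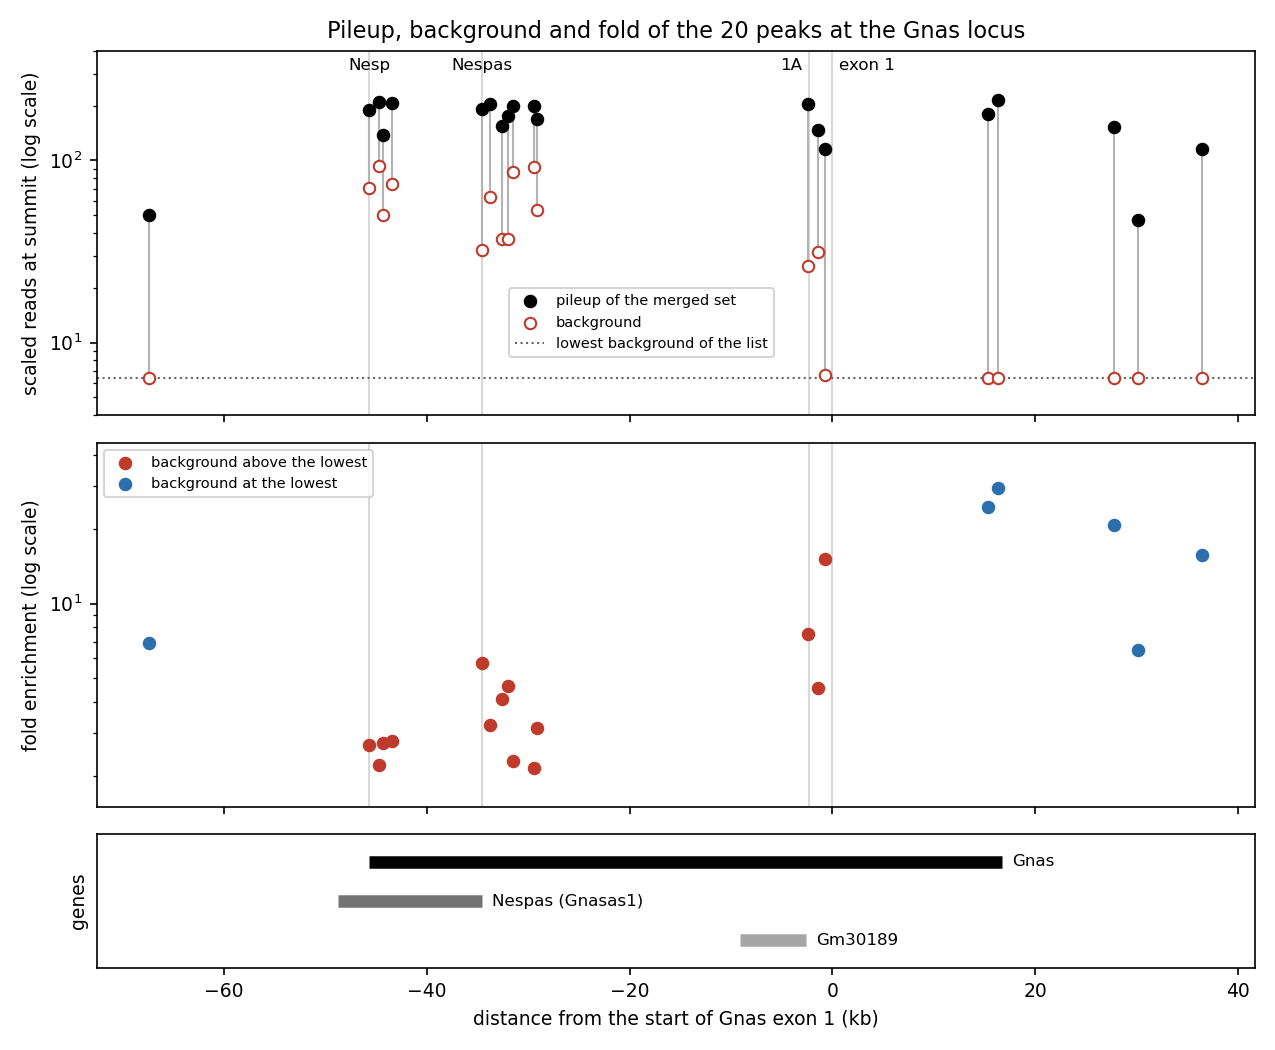
The 20 peaks of the Gnas locus by distance from the start of exon 1 (x axis, kb). The top panel gives pileup at the summit (black) and the background that the caller set against it (open red), in scaled reads. The middle panel gives the fold, both of these panels are on log scales, and the bottom panel gives the genes. The 14 peaks above the floor lie left of exon 1, and the 2 peaks at the end of Gnas have folds of 24.6 and 29.3.

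Around the start of Nesp, 4 peaks with low folds and high backgrounds covered 78.4% of 3.40 kb (chr2:174283924-174287319). The peak on the Nesp start, chr2:174283924-174284780, was 857 bp wide and centred 32 bp from the start, with its summit 397 bp downstream. Its pileup was 190 reads over a background of 70.5, a fold of 2.67. The next, at chr2:174285155-174285408, had 208 reads over 93.7, the highest background of the locus, and a fold of 2.21. A peak of only 70 bp followed (chr2:174285676-174285745), with 138 reads over 50 and a fold of 2.73. The fourth, chr2:174285837-174287319, was the widest of the locus at 1483 bp, wider than or as wide as 99.1% of all peaks, and had 207 reads over 74.1, a fold of 2.77. The folds of the 4 peaks thus differed little, from 2.21 to 2.77, and at most 0.277% of the peaks of the list had a fold as low as any of them. Their pileups were ordinary, each between 53.5% and 69.7% in rank among all peaks.

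From the start of Nespas, 7 peaks were spread over 5.88 kb (chr2:174295142-174301023), of which they covered 40.8%. The peak on the Nespas start, chr2:174295142-174295764, was centred 17 bp from it, with its summit 30 bp away. It had 191 reads over a background of 32.4, a fold of 5.75, the highest of the 7. The next, chr2:174295984-174296481, had a like pileup of 203 reads over a higher background of 62.6, a fold of 3.21. A pair around 2 kb further on, chr2:174297182-174297595 and chr2:174297823-174298173, shared a background of 36.8 under 154 and 175 reads, with folds of 4.10 and 4.65. The narrow peaks beyond them, chr2:174298437-174298616 and chr2:174300511-174300611, had 200 reads each, over 86.8 and 92.0, and the lowest folds of the group at 2.29 and 2.16. The fold of 2.16 was also the lowest of the locus, and 0.0725% of all peaks, each of them above the floor, had one as low. The last peak, chr2:174300794-174301023, had 168 reads over 53.2, a fold of 3.12. Within this group the pileup ranged from 154 to 203 reads and the background from 32.4 to 92.0. The order of the folds thus followed the background more than the pileup. The 2 narrow peaks with the highest backgrounds had −log10 q values of 23.3 and 20.4, near the limit of 20. A much lower pileup over such backgrounds would not have been listed, so the limit itself narrows the range of pileups.

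A stretch of 26.0 kb of Gnas without a peak separated this group from that at exon 1A, where 3 peaks covered 83.8% of 2.44 kb (chr2:174326987-174329429). The peak over both exon 1A starts, chr2:174326987-174328139, was 1153 bp wide and had its summit 139 bp after the first of them. It had 204 reads over 26.3, a fold of 7.51 and the highest −log10 q of the 14 peaks above the floor, 105. It also overlapped the last 401 bp of Gm30189, a lncRNA inside Gnas. The peak at chr2:174328304-174328814 had fewer reads, 146, over 31.3, and a fold of 4.55. The third peak, chr2:174329046-174329429, was the closest to exon 1, with its summit 786 bp before that start. It had 116 reads over 6.67, only 1.05 times the floor, and a fold of 15.2. Backgrounds around exon 1A were thus lower than at Nesp, where the lowest was 50 reads, with no overlap between the 2 groups of peaks.

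**Figure D3:**
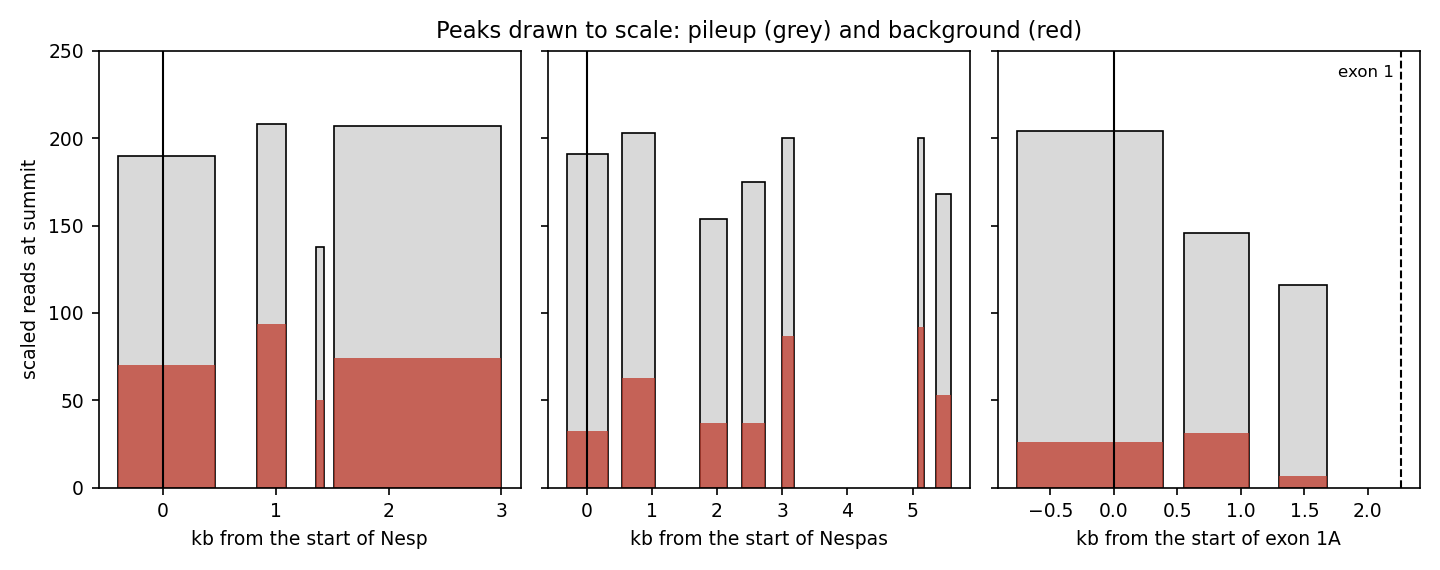
The 3 groups of peaks, each bar as wide as its peak, against distance from the start named under each panel (kb). Pileup at the summit is grey and the background set against it is red (y axis, scaled reads, from 0). Backgrounds reach 93.7 reads at Nesp and 92.0 after the Nespas start and stay at or below 31.3 around exon 1A; the dashed line marks exon 1, which no peak reaches.

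Exon 1 and the following part of Gnas lay in a stretch of 15.6 kb without a peak. The body of the gene ended in a pair of peaks at the floor. That at chr2:174345034-174345743 had 180 reads over 6.37 and a fold of 24.6, and that at chr2:174345996-174346582, 455 bp from the gene end at its midpoint, had 215 reads over 6.37 and a fold of 29.3, the highest of the locus. Their pileups fell within or just above the range of 116 to 208 reads of the 14 peaks above the floor. Their backgrounds were below those of 13 of the 14 peaks, which were 26.3 reads or more. The remaining one, the third peak at exon 1A, had nearly the same background, 6.67 reads, and a lower pileup. All 3 groups had lower folds than either, the highest being 15.2. Since a caller of this kind raises the background only above its floor, the local background of the 2 end peaks is known only to be at or below 6.37 reads.

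The flanks held 4 peaks, all at the floor. Upstream there was 1, chr2:174262590-174262747, with 50 reads and a fold of 6.92, 4.30 kb before Mir296 and 4.76 kb before Mir298, a pair of microRNA genes that had no peak of their own. Downstream, outside any gene, there were 3. Those at chr2:174357469-174358030 and chr2:174366221-174366701 had 152 and 115 reads and folds of 20.8 and 15.7, and one of 63 bp at chr2:174360096-174360158 had 47 reads and a fold of 6.51. The outermost of these were the members nearest to the 50 kb limit, and the closest peaks beyond it, 34.5 kb and 25.4 kb further out, had folds of 9.77 and 16.6, the second of them in Nelfcd, and were at the floor as well.

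Among the 14 peaks above the floor the highest pileup was 1.79 times the lowest and the highest background 14 times, or 3.56 times without the peak at 1.05 times the floor. The −log10 q of the 14 started at 20.4, near the limit of 20. A low pileup over a high background would not have been listed, so that limit narrows the range of pileups. Over all 20 locus peaks the highest pileup was 4.57 times the lowest. The 14 peaks above the floor had a median fold of 3.16, against 12.5 for all 21001 such peaks of the list. The median background of the 14 was 51.6 reads against 18.4. A fold under 5 was found for 11 of the 14, against 12.6% of the peaks above the floor and 3.14% of the whole list. No peak at the floor had a fold under 5, so the share among peaks above the floor is the closer reference. Over all 20 locus peaks the median fold was 4.60, against 13.2 for the list. This value depended on the limit of the list, since among locus peaks with a −log10 q of 50 or more it was 15.5 (8 peaks, 4 above the floor) and at 100 or more 22.7 (4 peaks, 1 above the floor).

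The pileups were also low for peaks with such backgrounds. Leaving out the peak at 1.05 times the floor, 13 locus peaks had backgrounds from 26.3 to 93.7 reads and pileups from 138 to 208 reads, with a median of 191. In the same range of background the list held 6371 other peaks, whose median pileup was 391 reads (quartiles 355 and 436). Only 1.90% of them had 208 reads or fewer. The median fold was 3.12 for the 13 locus peaks and 7.67 for the others, and the median width 414 and 692 bp. This range of background was set from the locus peaks themselves, and the comparison is a description without a test.

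**Figure D4:**
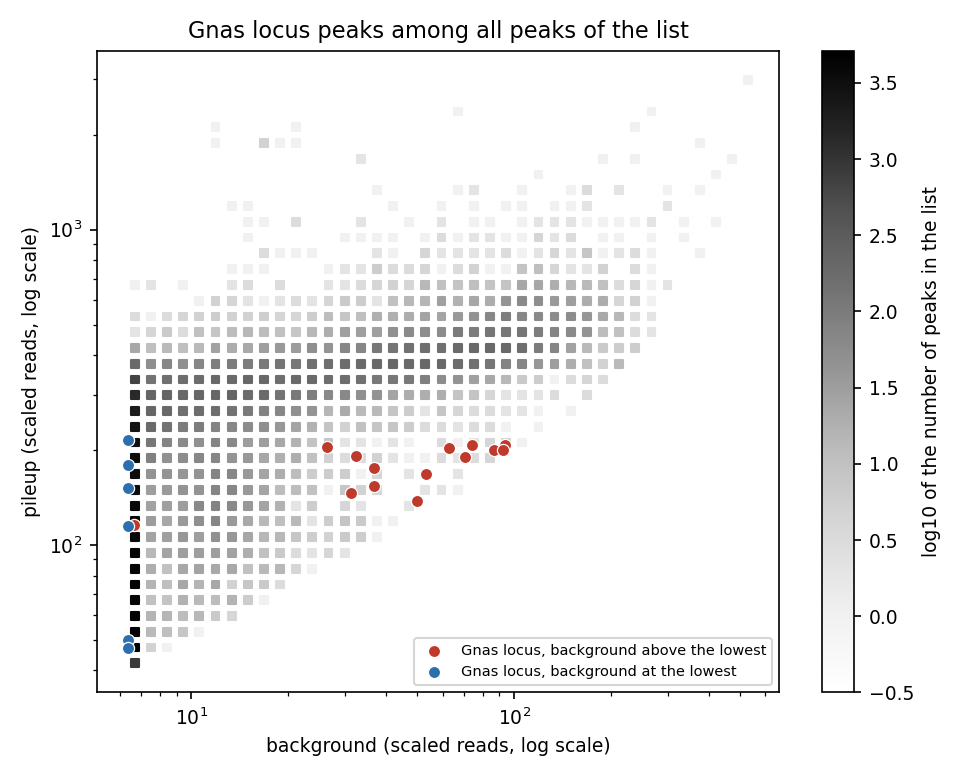
Pileup (y axis) against background (x axis), both in scaled reads on log scales. Grey squares count all peaks of the list whose values were solved, and coloured points are the 20 Gnas locus peaks, red above the floor and blue at it; the 13 red points with backgrounds of 26.3 or more lie at pileups of 138 to 208, below most grey squares at the same background.

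The recovered backgrounds also carried a step. Backgrounds above the floor but below 60 reads fell on whole multiples of 0.239 in 69.8% of cases (tolerance, 1% of that step). A step of this size is what 1 read would count for if the background reads outnumbered those of the merged set by a factor of 4.18. With a tolerance of 0.005 of an unscaled read, below 60 reads 2 of 8 locus peaks above the floor had such a background, against 69.5% of the peaks above the floor in the list. From 60 reads to the highest of the locus 6 of 6 did, against 94.9%. At these 8 locus peaks the background corresponded to between 110 and 392 unscaled reads over the summit. The count was 295 reads at the Nesp start, 392 at the next Nesp peak, 262 at the second peak after the Nespas start, 385 at the sixth, and 110 at the exon 1A start. Under this reading, reads of the background set lay over the summits of these 8 peaks. Which cultures or which DNA gave them is not stated in the sources used here.

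Windows of the same length as the locus (166 kb) were laid end to end along the chromosomes of the list. Of 11784 windows, 5.19% held 20 or more peaks, and the median was 5. Peaks above the floor numbered 14 or more in 23 windows, or 0.195%, with a median of 1. The 14 locus peaks also followed one another without a peak at the floor between them, and of 10379 such runs on the chromosomes 13 were as long or longer. Windows and runs count unmerged peaks. Merging peaks closer than 500 bp left 10 of the 20 locus peaks, and neither count was repeated after merging.

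Other imprinted regions were set beside the locus, with no test, since peaks of 1 list are not replicates. The Dlk1-Meg3 cluster, with 50 kb on each side, held 37 peaks, of which 10 were above the floor (27.0%), with a median fold of 13.4. The region of Igf2r and its antisense transcript Airn held 20, of which 5 were above the floor (25.0%), with a median fold of 9.50. Both shares were close to the 25.0% of the list, whereas that of the Gnas locus was 70%. The highest backgrounds were more alike, 65.5 reads at Dlk1-Meg3, 73.4 at Igf2r and Airn and 93.7 at Gnas. The Gnas locus had 12.1 peaks per 100 kb, against 9.32 and 7.21. Merging peaks closer than 500 bp left 10 at Gnas, 33 at Dlk1-Meg3 and 17 at Igf2r and Airn. The Gnas locus then had the lowest density, 6.04 against 8.31 and 6.13 per 100 kb. The shares above the floor count unmerged peaks and were not worked out after merging.

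**Figure D5:**
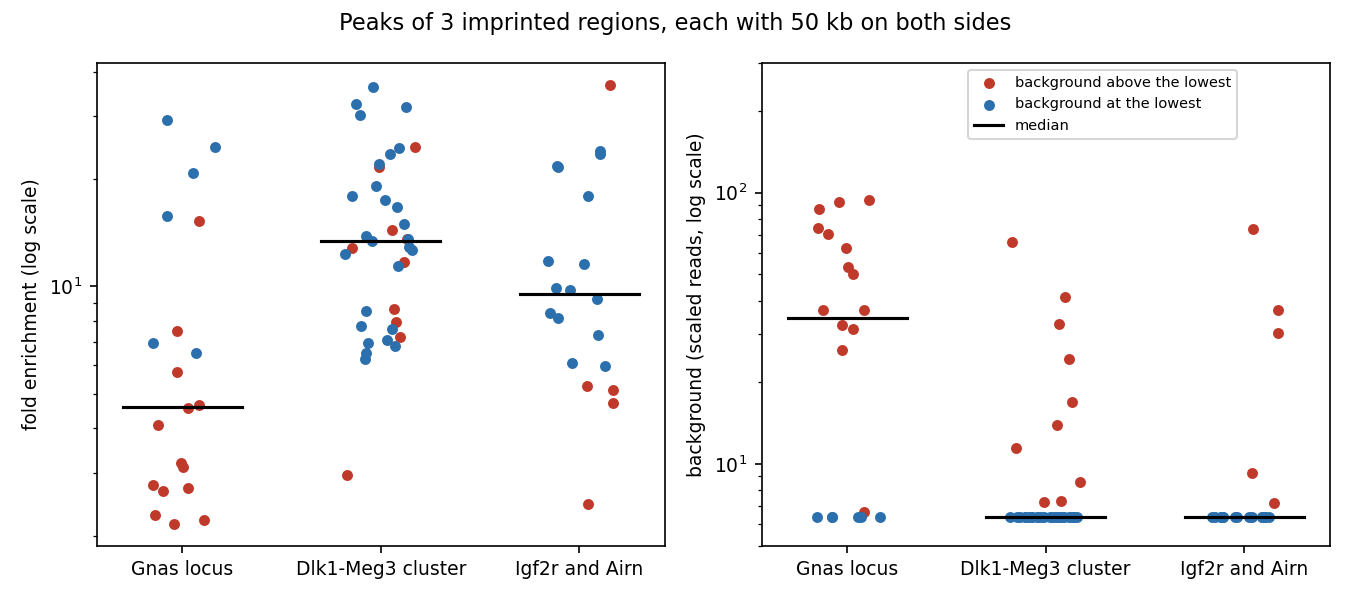
Fold (left) and background in scaled reads (right) of each peak in 3 imprinted regions, on log scales; red points are above the floor, blue points at it, and black lines are medians. The Gnas locus has 14 of 20 points above the floor and a median fold of 4.60, against medians of 13.4 and 9.50 in the other regions.

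In a list of 33 imprinted genes, all of them on covered sequence, 13 (39.4%) had a peak above the floor within 1 kb of either gene end, against 4.26% of all 36837 genes covered and 2.82% of protein-coding genes. They were Gnas, Nespas and 11 others: Zdbf2, Mcts2, Nnat, Peg10, Sgce, Plagl1, Meg3, Peg13, Slc38a4, Igf2r and Airn. Peg10 and Sgce shared a peak. The 16 such peaks of the 11 other genes had folds from 2.15 to 12.8, with a median of 5.19, and backgrounds from 9.28 to 95.9 reads. Of these, 9 had backgrounds within the range of the 13 Gnas locus peaks, and their pileups ran from 154 to 370 reads with a median of 192, 6 of them at or below 208. Among these 16 peaks, those nearest in value to the peaks of Nesp were at Nnat and Peg13. At Nnat they had 200 reads over 90.1 and 192 over 83.7, and at Peg13 207 over 95.9 and 154 over 57.0. Membership of imprinted genes in this pattern was known when the list was drawn up, so the count is no independent support.

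Genes of G protein and cAMP signalling, among them G alpha genes other than Gnas, were counted in the same way. The list ran from ligands and receptors to adenylyl cyclases, protein kinase A, downstream effectors and the phosphodiesterases that break down cAMP. Of its 77 genes, 57 lay on covered sequence, and the receptor gene Pth1r and its ligand gene Pthlh were not analysed here. A peak above the floor at a gene end was found for 2 of the 57 (3.51%, against 4.26% of all genes and 2.82% of protein-coding genes, as all 57 are). One was Gnas. The other was Gna12, another G alpha gene, where the peak had a pileup of 353 reads over 8.13 and a fold of 38.8. None of the 16 ligand and receptor genes, 3 G beta genes, 8 adenylyl cyclase genes, 4 protein kinase A genes, 9 effector genes and 5 phosphodiesterase genes had one. In the gene body 52 of the 57 had a peak and 22 one above the floor, against 64.3% and 20.1% of all protein-coding genes, with gene length not matched.

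Among the 12 G alpha genes covered, all had peaks in the body. Gnas had 16, of which 14 were above the floor, or 2.56 peaks per 10 kb of gene. The other 11 had between 2 and 9 peaks, or 0.171 to 1.82 per 10 kb, and of their 45 peaks 6 were above the floor. Over all peaks of the list 25.0% were above the floor. These counts are of unmerged peaks. Merging peaks closer than 500 bp left 10 of the 20 peaks of the Gnas locus, and merged counts were not made for the other G alpha genes. The 6 peaks above the floor outside Gnas lay in 4 genes: 2 each in Gnai1 and Gnaz, which encode inhibitory alpha subunits, and 1 each in Gnaq and Gna12. Gnal, which encodes the olfactory stimulatory subunit and is the closest relative of Gnas, had 6 body peaks, all at the floor, where most peaks of the list lie.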

How the data were processed

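MBD2-captured DNA of 3 control and 3 cKO chondrocyte cultures was sequenced. Fastp, Bowtie2 and MACS2 and the builds mm10 and GRCm38 are named, without roles or versions, per the submitters' processing notes. The deposited file is 1 peak list in narrowPeak layout, whose names, per the file headers and peak names, come from a merge of 3 datasets. The authors deposited for each peak a fold enrichment (a ratio over the caller's background), −log10 p and −log10 q values, and a score that is 10 times the −log10 q cut to a whole number. 1 incomplete last line was left out. The list as analysed here stops on chromosome 6, and chromosomes 7, 8, 9, X and Y are not analysed here.

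Pileup and background were solved from fold and p for a whole-number pileup, with p the Poisson probability of more reads than the pileup. This matched 99.97% of peaks (25 did not), within 1% of the spacing between neighbouring pileups, and all locus peaks. The solver was tested on simulated data. Peaks within 5 kb of one another were described as a group. Gene spans and promoter windows came from RefSeq tables of GRCm38.p6. Python 3.11.15, numpy 2.4.6, pandas 2.3.3 and scipy 1.17.1 were used. The locus, the gene lists (imprinted genes, and the G protein and cAMP pathway) and the measures were chosen with earlier results of these data known. Every locus peak, every gene within 50 kb and every list gene with a gene-end peak above the lowest background was to be named. No test was made, since no value belongs to a culture. The depth of each culture is unknown.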

Additional observations from a re-analysis of the deposited data

How the results depend on the processing

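No paired analysis was possible because no deposited value belongs to a single culture, and for the same reason no replicate was left out and control was not tested against cKO. Stricter limits on −log10 q removed mostly the peaks above the lowest background: at 50 or more the locus kept 8 peaks, with 4 above the lowest background and a median fold of 15.5, and at 100 or more it kept 4 peaks, with 1 above it and a median fold of 22.7. Merging peaks closer than 500 bp left 10 at the Gnas locus and, an alternative chosen after seeing the data, 33 of 37 at Dlk1-Meg3 and 17 of 20 at Igf2r and Airn. With no flank, flanks of 20 and 100 kb, and placement by summit, the locus had 16 to 29 peaks, of which 14 or 15 were above the lowest background, and median folds of 3.65 to 6.92. A background of at least 1.5 or 2 times the lowest was found for 13 peaks. The imprinted gene count stayed between 9 and 15 over its 6 alternatives; the lowest was for peaks overlapping a promoter window, an alternative chosen after seeing the data, for which 25 of the 33 genes had a window. The count of 2 G protein and cAMP genes became 5 within 2 kb of a gene end, 1 at a −log10 q of 50 or more and 1 at 2 times the lowest background. The recovered values rest on the assumption that the caller computed fold and p as described.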
